A study of Mus musculus with 48 samples.

Results

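The Unc5d locus lies on mouse chromosome 8, and most of its open-chromatin sites were more accessible in Nfib-amplified tumors than in tumors without the amplification. Of the 114043 merged ATAC-seq peaks of the series, 87 were centred between 29.0 and 30.5 Mb (mm9), an interval that holds the Unc5d gene near 29.75 to 30.35 Mb and a stretch of 0.75 Mb at lower coordinates, on the 3′ side of the gene. These 87 peaks, each 501 bp long, are described here. The interval was chosen by the log2 fold changes of its peaks in the comparison of tumors started with a CMV-driven Cre, so values from that comparison are a description and carry no test of the locus. The comparison of tumors started with a CGRP-driven Cre sets other libraries against each other and was not used for the choice.

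UNC5D is a single-pass membrane receptor of the UNC5 family. Members of this family bind netrins, secreted cues that guide migrating cells and growing axons, and mediate repulsion away from them. UNC5D also binds FLRT proteins on neighbouring cells, which steers migrating neurons of the developing cortex. UNC5 receptors are called dependence receptors because they can trigger cell death when no ligand is bound. ATAC-seq counts the places where a transposase can insert adapters into DNA, and so reads out accessible chromatin, at promoters and at distal elements alike. It does not measure whether the gene is transcribed or the protein made.

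In the RefSeq gene table of assembly GRCm38.p6, Unc5d (gene ID 210801) has Poteg as its next protein-coding neighbour at lower coordinates and Dusp26 at higher coordinates. Another 7 genes that do not code for protein lie between Poteg and Unc5d, and 13 between Unc5d and Dusp26. That table gives coordinates of another build, so only the order of genes was taken from it. No gene model of mm9 was used, and no peak is assigned here to a promoter, exon or intron. The gene span is the approximate one stated above.

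All 48 libraries came from mice of genotype Trp53-/-;Rb1-/-;p130-/-;R26mG, a model of small cell lung cancer in which adenoviral Cre removes 3 tumor suppressors of the Rb and p53 pathways. Ad-CMV-Cre carries Cre under a promoter active in most cell types, and Ad-CGRP-Cre under the promoter of a neuroendocrine peptide gene. The comparison of CMV tumors set 8 Nfib-amplified libraries, namely 5 liver metastases, 1 lymph node metastasis and 2 lung tumors, against lung tumor libraries without the amplification, of which 7 are labelled as such. The description of 1 of these 7 lists no comparison table, so whether it entered the authors' fit is not known here. The CGRP comparison set 7 liver metastases against 11 lung tumors, 1 of which is labelled Nfib amplified. The remaining 15 libraries, from Ad-CMV-Cre tumors and labelled as low enrichment, entered peak calling but no comparison. They are 8 liver metastases and 7 lung tumors, with 6 labelled Nfib amplified and 6 labelled hyperaccessible. Nfib encodes a transcription factor of the nuclear factor I family.

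These groups differ in more than 1 respect. In the CMV comparison 6 of the 8 amplified libraries are metastases and none of the 7 others is, so amplification and site cannot be told apart. All 8 amplified libraries are also labelled hyperaccessible. By preparation batch, 2 amplified and 2 other libraries belong to batch 1, and 6 amplified and 5 others to batch 3. Of the CGRP libraries all 7 metastases belong to batch 2, with 7 of the lung tumors, and the other 4 lung tumors to batch 3. The titles of the 8 amplified libraries carry 2 codes, V5 on 6 and V1 on 2, and 5 distinct titles before a final letter A or B. Both codes recur among the 7 libraries without amplification, V5 on 5 and V1 on 1, and 3 codes recur between the CGRP groups. The labels do not say what the codes or the final letter mark, or which libraries share an animal. Where libraries share an animal or tumor, p-values measure in part a technical spread. The deposited tables hold 1 mean normalised count per peak and the authors' fitted comparisons, and no value for each library. Depth per library is therefore unknown, the overlap of the groups at a peak cannot be given, and the tumor identity of the samples was not checked against marker genes.

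Nearly the whole locus was higher in the Nfib-amplified libraries. At an adjusted p below 0.05 (DESeq2's Wald test, by the authors), 73 of the 87 peaks were raised and none was lowered, while 34.3% of all tested peaks were raised and 12.2% lowered. The median log2 fold change of the 87 peaks, amplified against not amplified, was 3.19, with quartiles of 2.32 and 4.36 and a median standard error of 0.88 per peak. That median corresponds to a 9.13-fold difference, against 1.52-fold for the median of all merged peaks (0.60 on the log2 scale). Values above 0 were found at 86 of the 87 peaks. In the authors' second test, which asks for a difference beyond a log2 fold change of 0.5, 58 of the 87 were raised, beside 19.0% of all tested peaks. These counts restate the choice of the interval and are given to show its extent.

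**Figure D1:**
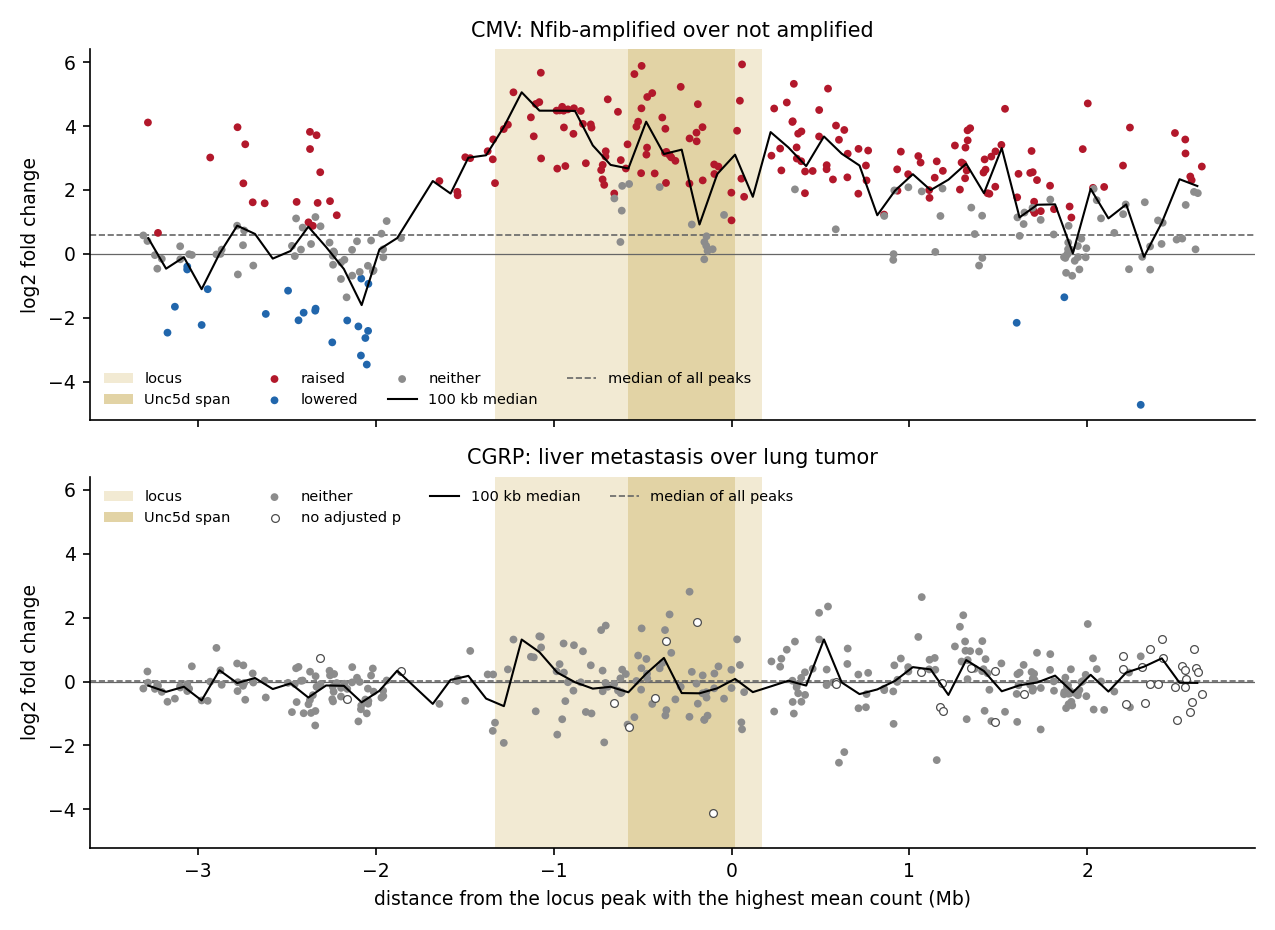
Log2 fold change of each merged peak (points, coloured by call) in the CMV comparison (top) and the CGRP comparison (bottom), by distance in Mb from the locus peak with the highest mean count, with medians of 100 kb bins as a black line and the median of all peaks dashed. In the top panel the shaded locus has a median of 3.19, above 0.13 in the lower and 2.01 in the upper flank, and in the bottom panel no peak is called.

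The size of the differences placed many of these peaks among the most strongly raised in the genome. A log2 fold change above 3 was found at 49 of the 87 peaks (56.3%) and at 10.7% of all merged peaks. Values above 4 were found at 28 of the 87 (32.2%) and at 3.26% of all peaks. Of the 87, 47 fell within the highest 10% of all peaks and 11 within the highest 1%. The lower end of the 95% interval lay above 1 at 57 peaks of the locus (65.5%), against 16.8% of all peaks.

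The flanks were unlike each other. The lower flank, from 27.0 to 29.0 Mb, held 95 peaks, whose log2 fold changes had a median of 0.13, quartiles of -0.55 and 1.18 and a median standard error of 0.52. Of these, 27 were raised and 21 lowered. The upper flank, from 30.5 to 33.0 Mb, held 155 peaks with a median of 2.01 (quartiles 0.91 and 2.93, median standard error 0.83), of which 90 were raised and 3 lowered. The balance depends on where 0 is set, because the median of all peaks was 0.60. After centring on that median, 15 peaks were raised and 38 lowered in the lower flank, 56 and 9 in the upper flank, and 59 and 0 in the locus. The locus thus lay inside a longer raised stretch.

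Medians of 100 kb bins were used to mark a run within that stretch. From 28.6 to 32.2 Mb every bin had a median above that of all merged peaks, a run of 36 bins and 3.6 Mb with 197 peaks. Of these, 158 were raised (80.2%) and 1 was lowered, and their median log2 fold change was 2.78. The section of the run in the lower flank had 9 peaks, all raised, with a median of 2.96. The other 86 peaks of the lower flank had a median of -0.00, with 18 raised and 21 lowered. In the upper flank, the 101 peaks inside the run had a median of 2.53 and the 54 outside it 0.57. Of those 54, 19 lay in the bin just above the run.

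The lower edge fell at a gap between merged peaks. Between 28.2 and 28.3 Mb, 7 of 10 peaks were lowered and the bin median was -1.60. The next 8 peaks, between 28.3 and 28.5 Mb, were called in neither direction, and the run began at 28.6 Mb. No merged peak was centred between those at 28.471 and 28.687 Mb, so how abruptly values change there is not known. At the upper edge the bin from 32.2 to 32.3 Mb held 19 peaks, of which 2 were raised, and had a median of 0.02. That bin alone ended the run. The bins from 32.3 to 33.0 Mb had medians of 2.03, 1.11, 1.55, -0.09, 0.98, 2.34 and 2.12, in order. All but that of -0.09 lay above the 0.60 of all merged peaks, so raised values recurred beyond the run. The bin medians came from 1 to 19 peaks each, and several bins below 29.2 Mb rest on 1 or 2 peaks.

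The most abundant peaks of each flank did not all follow the flank medians. In the authors' deposited table the peak of the lower flank from 27229681 to 27230181 had a mean normalised count of 285.9 and a log2 fold change of -0.17 (standard error 0.17, adjusted p = 0.423). That from 27086936 to 27087436 had a mean of 244.3 and a fold change of -0.04 on the log2 scale in the same deposited table (standard error 0.11, adjusted p = 0.805). In the upper flank, the authors' deposited table gives 0.02 (standard error 0.13, adjusted p = 0.913) for the peak from 32221928 to 32222428, whose mean was 418.1. It gives 1.23 (standard error 0.34, adjusted p = 0.001494) for the peak from 31188137 to 31188637, whose mean was 375.0. Of these 4 the last one alone was raised, and it alone lies inside the raised run. The run was drawn from these same fold changes, so this placement is no separate evidence. The value of 0.02 is also the median of the bin that ended the run.

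Within the locus, the 3′ side of Unc5d had larger values than the gene span, a split that was not tested. Of the 40 peaks between 29.0 and 29.75 Mb, 36 were raised, and the median was 3.83 on the log2 scale, with quartiles of 2.73 and 4.48. The 42 peaks of the gene span had a median of 2.97 (quartiles 2.12 and 3.95), with 32 raised. The 5 peaks between 30.35 and 30.5 Mb were all raised, with a median of 3.85. The first 32 peaks of the locus, from 29.049 to 29.670 Mb, were raised without a break. The bins between 29.2 and 29.5 Mb had medians of 4.47 to 4.48, and the next 2, up to 29.7 Mb, had 3.39 and 2.78. In the gene span, the bin from 29.8 to 29.9 Mb had 4.135 and that from 30.1 to 30.2 Mb had 0.92. Bin medians of the 3′ side and the gene span thus overlapped. Across the 87 peaks, position and fold change were related with a Pearson correlation of -0.40 and a Spearman correlation of -0.39. Neighbouring peaks share libraries and surroundings, so this is a description.

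**Figure D2:**
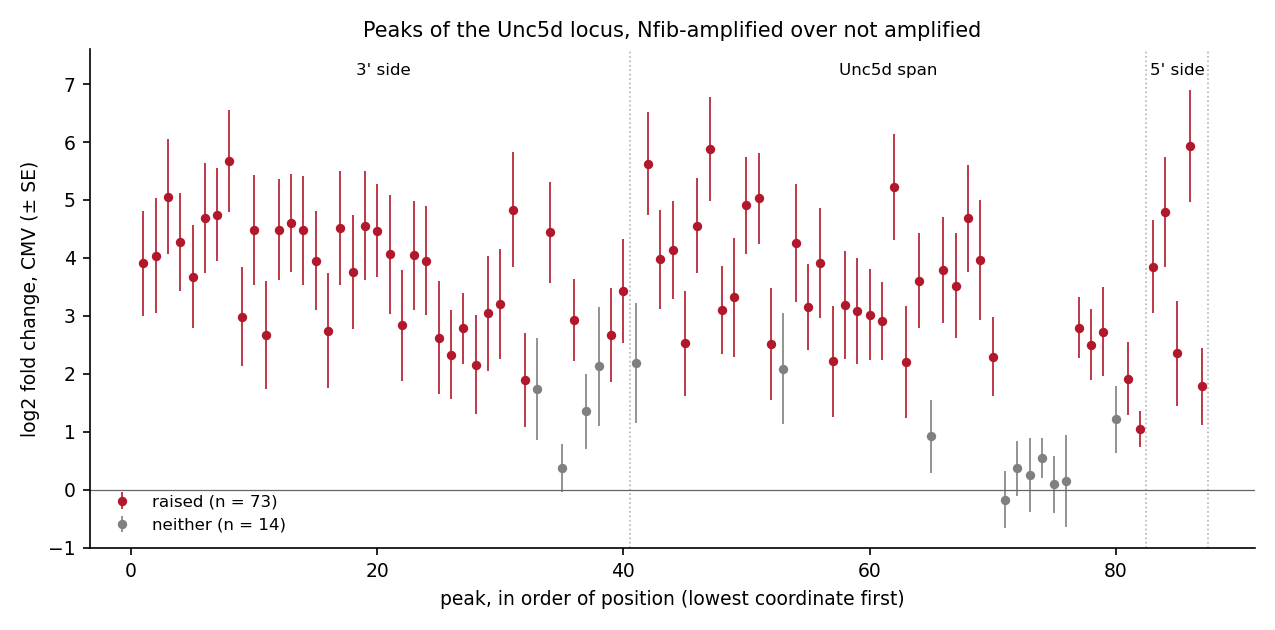
Log2 fold change, with a bar of 1 standard error to each side, for each of the 87 peaks of the locus in the CMV comparison, in order along the chromosome, with dotted lines at the ends of the gene span. The 73 raised peaks lie between 1.05 and 5.93, and the 14 others include a series of 6 neighbours near 0.

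Among peaks with a mean count of 20 or more, those with the largest differences lay in the gene span and just beyond its 5′ end. In the authors' deposited table the largest log2 fold change of these was 5.93 (standard error 0.97, adjusted p = 6.077e-08), from 30389189 to 30389689. Next came 5.88 in that deposited table (standard error 0.89, adjusted p = 5.8e-09), from 29824359 to 29824859 in the gene span. The peak from 30044300 to 30044800 reached 5.23 (standard error 0.91) and that from 29883992 to 29884492 reached 5.03 (standard error 0.79) in the authors' deposited table, both in the gene span. The peak from 30377028 to 30377528, on the 5′ side, had 4.79 (standard error 0.95) in the deposited table. Their mean normalised counts lay between 23.5 and 47.0, so none of these peaks was among the most abundant of the locus.

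The peaks with the highest mean counts behaved unevenly. The highest was from 30329915 to 30330415, inside the gene span and near its 5′ end, with a mean normalised count of 293.0. Its log2 fold change in the authors' deposited table was 1.05 (95% interval 0.44 to 1.66, adjusted p = 0.003228), a 2.07-fold difference and the smallest among the 73 raised peaks. The next, from 30189461 to 30189961, had a mean of 172.5 and a log2 fold change of 0.55 in the authors' deposited table (95% interval -0.13 to 1.23, adjusted p = 0.181), and was not raised. The following 3 peaks by mean count had far larger differences. The authors' deposited table gives 3.33 (standard error 1.03) from 29854761 to 29855261, 4.52 (standard error 0.99) from 29409861 to 29410361, and 3.16 (standard error 0.74) from 29955839 to 29956339, at mean counts of 124.0, 101.5 and 87.9.

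A short series of peaks inside the gene span was not raised. From 30.177 to 30.224 Mb, a stretch of 47.2 kb, it held 6 consecutive peaks. Their log2 fold changes in the CMV comparison ranged from -0.17 to 0.55, with a median of 0.20 and a median standard error of 0.49. The peaks next to the series on both sides were raised. The authors' deposited table gives 2.30 (standard error 0.69, adjusted p = 0.003349) for the neighbour at 30.168 Mb and 2.80 (standard error 0.53, adjusted p = 3.269e-06) for that at 30.233 Mb. The 3 smallest values of the locus were all in the series. They were -0.17 (standard error 0.49) from 30176623 to 30177123, 0.09 (standard error 0.49) from 30195154 to 30195654 and 0.15 (standard error 0.80) from 30223864 to 30224364 in the authors' deposited table. The third is a weak peak with a mean count of 4.60. Without the 6 peaks, 73 of the remaining 81 were raised.

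DNA copy number was not measured in the files used here, and its part in these values was not tested. The interval was cut at round coordinates, and values ran on across both cuts. At the lower cut, the authors' deposited table gives 3.91 (standard error 0.90) for the first peak inside, from 29049090 to 29049590, and 2.21 (standard error 0.78) for the one outside, from 28999728 to 29000228. At the upper cut it gives 1.79 (standard error 0.66) for the last peak inside, from 30400887 to 30401387, and 3.07 (standard error 0.89) for the next outside, from 30554476 to 30554976.

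The 14 peaks that were not raised were of more than 1 kind. All but 1 had a log2 fold change above 0. For 8 the value was below 1 in size, and 6 had an adjusted p below 0.1. Their standard errors ranged from 0.35 to 1.03. Of the 8 with small values, 6 form the series in the gene span. Another was the peak from 29704968 to 29705468 on the 3′ side, with a mean count of 86.96 and a log2 fold change of 0.37 (standard error 0.41, adjusted p = 0.465) in the authors' deposited table.

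Peak abundance was spread over the usual range. The median of the mean normalised counts was 19.3 in the locus, with quartiles of 10.8 and 34.2, beside 21.2 over all merged peaks. With both on the log2 scale, mean counts and fold changes of the 87 peaks were nearly unrelated. The Pearson correlation was 0.04 and the Spearman correlation 0.17, as a description over peaks from the same libraries. At a mean count under 10, 14 of 18 peaks were raised, beside 27.0% of all peaks in that class. Between 10 and 20 it was 24 of 28, beside 40.2%. Between 20 and 50 it was 25 of 28, beside 38.2%. At 50 or more it was 10 of 13, beside 29.3%, and the median log2 fold change there was 3.16 against 0.06 for all peaks of that class. In the lower flank 5 of 30 peaks in this highest class were raised, and in the upper flank 15 of 28.

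The standard errors in the locus were large for its counts. At a mean count of 50 or more the median standard error in the CMV comparison was 0.74 in the locus and 0.28 over all peaks. In the CGRP comparison it was 0.71 against 0.24 in that class. The deposited values do not show which libraries the spread comes from.

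The CGRP comparison set liver metastases against lung tumors at the same peaks, in libraries that the CMV comparison does not set against each other. The mean normalised count of each of the 114043 peaks is the same in both of the authors' deposited tables, so both comparisons may come from 1 fit over CMV and CGRP libraries with a shared estimate of the spread, and the CGRP standard errors and p-values are then not independent of the CMV libraries. At an adjusted p below 0.05, none of the 81 peaks with an adjusted p was raised and none was lowered in the authors' table from DESeq2, where 0.0752% of all peaks with an adjusted p were raised and 0.779% lowered. The other 6 peaks carry no adjusted p there. The median log2 fold change, liver metastasis over lung tumor, was -0.02 (quartiles -0.65 and 0.56, median standard error 0.87), with 42 peaks above 0 and 45 below. The lower flank had a median of -0.16, the upper flank 0.03 and all merged peaks 0.01. No peak of either flank passed the threshold.

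At an unadjusted p below 0.05, 11 of the 87 peaks (12.6%) differed in the CGRP comparison, beside 9.62% of all peaks. Of these 11, 5 were higher and 6 lower in the metastases, and 6.25% of all peaks were lower at that level. The gene span held 9 of the 11. The smallest adjusted p was 0.0610, at the peak from 30094005 to 30094505, with a log2 fold change of 2.81 (standard error 0.82) in the authors' deposited table.

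The precision of the CGRP values limits what a missed threshold shows. The 95% interval held 0 at 76 of the 87 peaks, and its median half-width was 1.70 on the log2 scale. The fold changes of the comparisons were not tested against each other. The CGRP groups were set apart by tissue, and their preparation batches were not balanced. Across the 87 peaks the fold changes of the comparisons had a Pearson correlation of 0.30 and a Spearman correlation of 0.27, as a description over peaks that share libraries within each comparison.

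**Figure D3:**
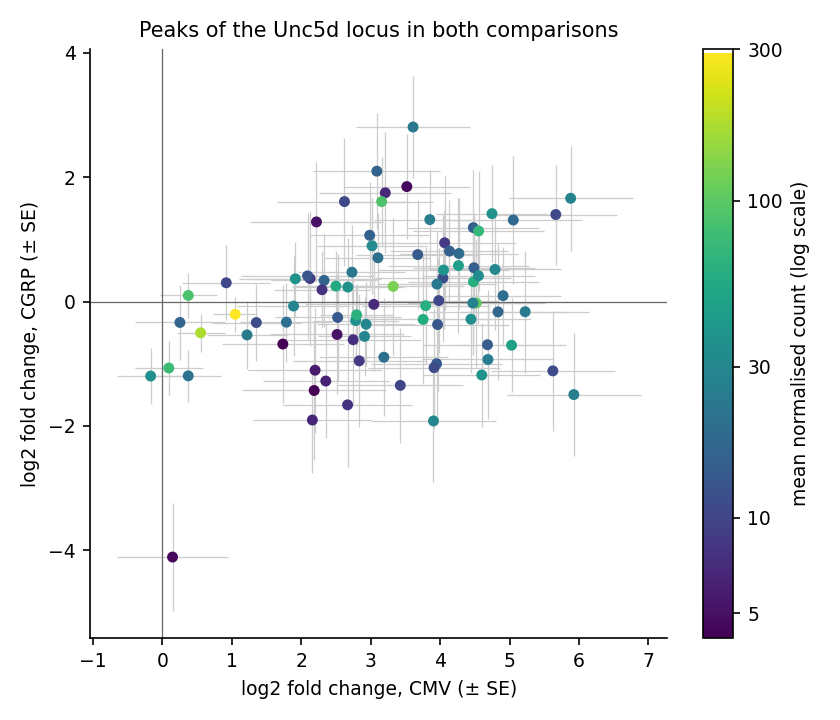
Log2 fold change of each peak of the locus in the CMV comparison (horizontal axis) and in the CGRP comparison (vertical axis), with bars of 1 standard error to each side and colour for the mean normalised count. The points lie well to the right of 0 on the horizontal axis, with a median of 3.19, and about evenly above and below 0 on the vertical axis, with a median of -0.02.

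The strongest peaks of the CMV comparison showed no common direction in CGRP tumors. For the 5 named above, in the same order, the authors' deposited table gives CGRP log2 fold changes of -1.50, 1.66, -0.16, -0.70 and 0.52, with standard errors between 0.75 and 0.99. Their adjusted p-values from DESeq2 lay between 0.493 and 0.982. The most abundant peak, at 30.330 Mb, had -0.20 (standard error 0.28, adjusted p = 0.891) in the deposited table.

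The series of 6 peaks near 0 in the CMV comparison had CGRP log2 fold changes below 0 throughout, with a median of -1.13, and none passed the threshold. The authors' deposited table gives -1.20 (standard error 0.45, adjusted p = 0.238) at 30.177 Mb and -1.07 (standard error 0.44, adjusted p = 0.315) at 30.195 Mb. At 30.224 Mb it gives -4.11 (standard error 0.87) with no adjusted p. When p-values were adjusted over all peaks with a p, that peak had an adjusted p of 0.00145 from the DESeq2 values and was the only one of the 87 called, beside 0.692% of all peaks lowered under that adjustment. Its mean normalised count was 4.60, so it rests on few reads.

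Summit lists from 3 pools, which include the libraries of both comparisons, give the places where MACS2 called a peak. The CMV pool held 19 libraries. Of these, 15 are the low-enrichment ones, 6 of them labelled Nfib amplified. From the groups of the CMV comparison it held 2 amplified libraries and 2 without amplification. The CGRP pool held 14 libraries, 7 from each tissue. The mixed pool held 15, of which 6 were Nfib-amplified CMV libraries, 5 CMV libraries without amplification and 4 CGRP lung tumors. Calls were made on pools, so there are no replicates, and intervals on shares cover counting error over peaks only. Each pool is also 1 preparation batch: batch 1 for the CMV pool, batch 2 for the CGRP pool and batch 3 for the mixed pool. By sequencing batch, the CMV pool spans batches 1 and 3, the CGRP pool is batch 2 and the mixed pool batch 3. A difference between pools therefore cannot be told apart from one between batches, and the depth of the pools is not known here. Shares are set beside those of the flanks and of all peaks in the same pool.

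Few peaks of the locus were called in the CGRP pool. A summit of the CGRP pool lay within 250 bp of 26 of the 87 peaks, or 29.9% (95% Wilson interval 21.3 to 40.2). The share was 80.0% in the lower flank, 40.6% in the upper flank and 75.0% over all merged peaks. The CMV pool had a summit at 80 of the 87 (92.0%), beside 88.6% of all peaks, and the mixed pool at 77 (88.5%), beside 89.5%. A CMV but no CGRP summit was found at 56 of the 87 peaks (64.4%), beside 22.6% of all peaks. The reverse was found at 2 (2.30%), beside 9.10% of all peaks, and summits of all 3 pools at 23 (26.4%), beside 64.8%. The merged set took its peaks from these same lists, so a high share in at least 1 pool is built in. The locus was chosen by its CMV log2 fold changes. Over all merged peaks the median of these was 2.43 without a CGRP summit and 0.20 with one. A low CGRP share is thus in part built into the choice as well.

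The CGRP summits were unevenly spread. On the 3′ side 7 of 40 peaks had one (17.5%), and in the gene span 18 of 42 (42.9%). Among peaks with a mean count of 50 or more it was 9 of 13 (69.2%), beside 98.3% of all peaks in that class. Counting summits without regard to merged peaks, the CGRP pool had 40 in the locus, or 2.67 per 100 kb, which is 0.409 times the density of its whole list. The density was 0.246 times that of the list on the 3′ side, 0.691 times in the gene span, 0.959 times in the lower flank and 0.547 times in the upper flank. The CMV pool had 212 summits in the locus, 1.48 times the density of its list, with 0.712 times in the lower flank and 1.45 times in the upper flank. The mixed pool had 148, or 1.27 times.

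**Figure D4:**
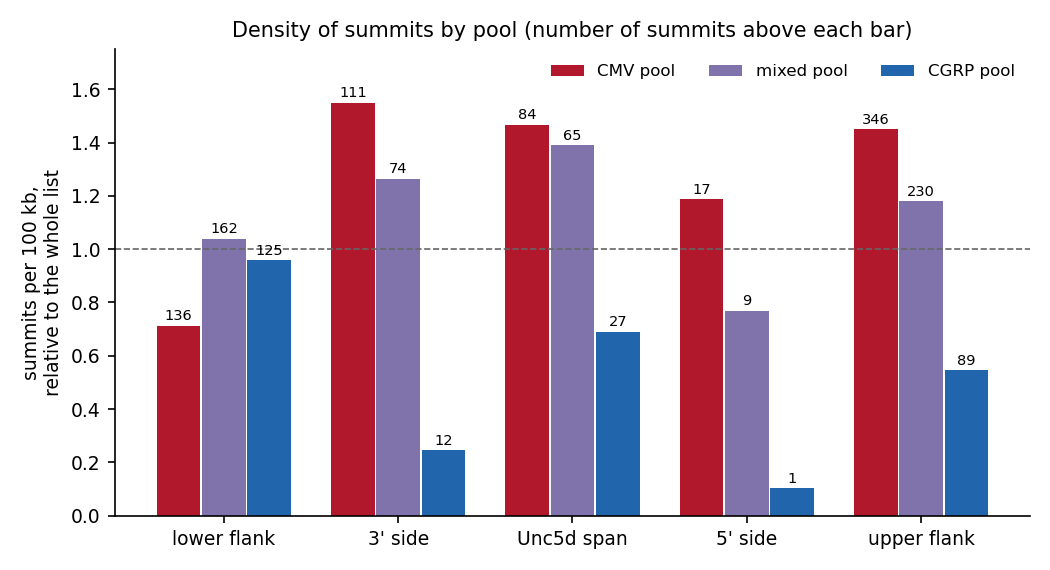
Summits per 100 kb in each section of the locus and in its flanks, as a ratio to the density of the pool's whole list (bars; dashed line at 1), for the 3 pools, with the number of summits above each bar. The CGRP pool has 12 summits on the 3′ side of Unc5d, 0.246 times the density of its list, where the CMV pool has 111, or 1.55 times.

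The CGRP summits that were present in the locus were mostly weak, with 4 exceptions. Their median score, as −log10 of the q-value, stood at percentile 32.3 of the CGRP list, while summits at all merged peaks stood at 65.7. A score above percentile 75 of the CGRP list was reached at 4 of the 87 peaks (4.60%), beside 27.8% of all merged peaks. The authors' deposited summit list gives scores of 682.2 at 30.190 Mb, 676.3 at 30.330 Mb, 329.5 at 29.705 Mb and 288.8 at 30.195 Mb. These 4 peaks had CMV log2 fold changes between 0.09 and 1.05. The other 9 peaks with a mean count of 50 or more had values between 2.50 and 4.55. The mean count runs over libraries of both models, so a peak that reached 50 without a strong CGRP summit had to be high in other libraries, and this contrast is in part built in. Over all merged peaks, those above that percentile of the CGRP list had a median CMV log2 fold change of -0.13.

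Peaks with and without a CGRP summit differed in the same direction. The 61 without one had a median of 3.91 on the log2 scale in the CMV comparison, with 55 raised and quartiles of 2.75 and 4.49. The 26 with one had a median of 2.31 (quartiles 0.95 and 2.99), and 18 were raised. Over all merged peaks the medians were 2.43 without a CGRP summit and 0.20 with one. A merged peak without a CGRP summit entered the set through the CMV or the mixed pool. Those pools hold all the amplified libraries of the comparison, so this direction is in part built in. The locus stood higher in both classes, but it was chosen by these same values. No test was made of this split, which was chosen after the values were seen. At the peaks from 29409861 to 29410361 and from 29854761 to 29855261, both above a mean count of 100, the authors' deposited summit list gives CGRP scores of 2.46 and 2.78.

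The median of the locus was also high beside windows of the same length elsewhere in the genome. Among 1208 other windows of 1.5 Mb holding at least 30 merged peaks, none had a median CMV log2 fold change as high as the locus. The median of these windows was 0.61, the 95th percentile 1.99 and the highest 2.82. On chromosome 17, the window with that highest median spanned 76.5 to 78.0 Mb, and 39 of its 53 peaks were raised. The next were chromosome 1 from 144.0 to 145.5 Mb, with a median of 2.81 and 30 of 41 peaks raised, and chromosome 2 from 7.5 to 9.0 Mb, with 2.75 and 24 of 32. Their CGRP medians were 0.11, 0.69 and 0.48. The limits of the Unc5d interval were set knowing its values while those of the other windows were fixed by a grid, so its rank is a description.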

How the data were processed

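ATAC-seq libraries of mouse small cell lung cancer were analysed from the authors' deposited files, and groups came from the labels. Per the submitters' processing notes, the authors used Bowtie2, MACS2 and DESeq2 with build mm9. Versions and settings were not given in the sources used here. The deposited summit lists give 1 score per summit, the −log10 of its q-value by their scale, from 3 pools of libraries. The authors' deposited comparison tables give per peak a mean normalised count over libraries (a signal with no library values, identical in both tables), a log2 fold change, its standard error, a Wald score, and raw and adjusted p-values. No source used here tells whether those fold changes were shrunken. The Wald score is the ratio of fold change to standard error at every peak. The largest standard error of any peak was 1.07 in the CMV and 1.24 in the CGRP comparison.

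Peaks were joined by name, and members were taken by peak centre. Counts, medians, 100 kb bins, 95% intervals (1.96 standard errors), Wilson intervals and summits within 250 bp were computed with Python 3.11.15, numpy 2.4.6, pandas 2.3.3 and scipy 1.17.1, and drawn with matplotlib 3.10.9. The scripts were tested on simulated data. The authors' DESeq2 fits were not rerun, because no count per library was used here. Adjusted p-values were counted as called below 0.05. In the CMV comparison 170 of the merged peaks had no p-value, and in the CGRP comparison 8922 had no adjusted p.

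Named peaks are the 5 raised members with the largest CMV change at a mean count of at least 20, the 5 with the highest mean count, any called in the CGRP comparison, the 3 smallest CMV changes, those beside each end of the interval, the 2 most abundant of each flank and the highest summit of each pool. The peaks at 29.705, 30.094, 30.168 and 30.233 Mb were named after their values were seen. The members, lists and rules were chosen with earlier results of these data known. Other netrin receptors and their ligands were not analysed here.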

Additional observations from a re-analysis of the deposited data

How the results depend on the processing

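Of 49 alternative values, 41 stayed within 1.5 times the count, 1 median standard error of the median, or the Wilson interval of the share. Leaving out the series of peaks that were not raised is among these 41 and could not change the count. The locus median ranged from 2.41 to 3.76. The 73 raised peaks became 62 at an adjusted p below 0.01, 79 below 0.1, 59 after centring on the median of all peaks (a shift of 0.60 on the log2 scale, with 22710 peaks raised and 29095 lowered genome-wide), 35 of 41 at a mean count of at least 20 and 32 in the gene span alone. In the CGRP comparison 1 peak was called below an adjusted p of 0.1, 1 after centring and 1 when p-values were adjusted over all peaks. Centring moved the lower flank to -0.47, and weighting by the inverse squared standard error moved the upper flank to 0.93. The CGRP summit share became 46.3% at a mean count of at least 20, an alternative chosen after seeing the data. Centring turned 6 peaks of the locus negative. Among the peaks named by rule, the CMV log2 fold change turned negative at 30.190 Mb (-0.051), 30.195 Mb (-0.51), 30.224 Mb (-0.46) and 32.222 Mb (-0.58), and the peaks at 29.000, 30.330, 30.401 and 31.188 Mb were then no longer called. The smaller totals follow from fewer peaks, and for the other shifts the cause was not tested. No paired analysis was possible because the files used here hold the authors' fitted comparisons and no value per library, and leaving out single libraries was not run for that reason.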
